A study of Mus musculus with 4 samples.

Results

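The genes described here are the nuclear-encoded genes of mitochondrial oxidative phosphorylation in mouse tumour immune cells. They were taken by name, as every gene whose symbol starts with Nduf, Sdh, Uqcr, Atp5, Cox4, Cox5, Cox6, Cox7 or Cox8, which gave 93 of the 13071 genes in the table that joins LLC and B16 cells. By complex they were 44 genes of complex I (7 core subunits, 29 accessory subunits and 8 assembly factors), 8 of complex II (4 subunits and 4 assembly factors), 8 of complex III, 17 of complex IV and 16 of complex V. All 93 were also in the table of monocytes and macrophages, which holds 12996 genes.

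The electron transport chain sits in the inner mitochondrial membrane. Complex I (NADH dehydrogenase, the Nduf genes) and complex II (succinate dehydrogenase, the Sdh genes, which is also an enzyme of the tricarboxylic acid cycle) pass electrons to complex III (the Uqcr genes) and on to complex IV (cytochrome c oxidase, the Cox genes), and complex V (ATP synthase, the Atp5 genes) uses the proton gradient to make ATP. Complex II is coded by nuclear genes only, whereas the other complexes also hold subunits coded by mitochondrial DNA. Several complex IV subunits exist as isoforms, such as Cox4i1 and Cox4i2, or as a related pair, Ndufa4 and Ndufa4l2, in which the second gene is known to be induced by low oxygen in several cell types. Ndufa4 was first assigned to complex I by name and is now counted as a complex IV subunit, and it is grouped so here.

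Cells came from subcutaneous LLC (Lewis lung carcinoma) and B16 (melanoma) tumours, each library made on the 10x Genomics platform from a pool of 3 mice. The LLC library came from F11r fl/fl LysM-Cre- mice, which carry a floxed F11r gene and no LysM-Cre, and the LLC CITE-seq library and the B16 library came from C57BL/6J mice. The labels give no treatment, age or sex for any of these mice. Each group is therefore 1 library, so no test between groups was possible, and tumour, mouse line and library cannot be told apart between LLC and B16.

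The joint table held 13021 LLC cells and 6870 B16 cells with a median of 6174 and 8315 unique molecular identifiers (UMIs) per cell, and the monocyte and macrophage table held 8155 LLC, 10131 LLC CITE-seq and 2297 B16 cells with medians of 6530, 4546 and 9250. Levels are UMIs per 1000000 of all UMIs in the same cells (CPM), so they are shares of the measured RNA, and fewer mitochondria, less RNA of these genes per cell and more RNA of other genes cannot be told apart. Intervals are 95% and cover counting error only. Ratios of 1.5-fold or more in either direction were called, for genes that had 20 or more UMIs in the cells of the 2 groups together. The libraries shared 29 cell barcodes in the joint table and at most 18 between any pair in the monocyte and macrophage table.

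Of markers fixed for each class, all 6 for neutrophils were higher than in the other cells in both libraries, and for monocytes and macrophages 8 of 8 were higher in LLC and 7 of 8 in B16. Likewise 3 of 3 for NK cells and for pDC were higher in both libraries, and 4 of 6 for dendritic cells were higher in cDC2 and migDC. For B cells 4 of 4 were higher in B16 and 3 of 4 in LLC, where 1 was at 0 UMIs. No count is given here for the T cell markers, so these values do not cover naive T cells.

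All 93 genes had UMIs in both libraries of the joint table, and together they made up 2.08% of LLC UMIs and 2.49% of B16 UMIs. The member with the most UMIs in each complex was Ndufa13 in complex I, Sdhb in complex II, Uqcrh in complex III, Cox4i1 in complex IV and Atp5e in complex V. Ndufa4l2, Atp5s and Cox6b2 each had under 1000 UMIs. Genes of this kind have many processed pseudogenes, and where the counting could have split reads among near-identical copies their levels are uncertain. Of the 93 symbols, 92 matched 1 gene of the GENCODE vM21 annotation of mm10.

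The upstream sequences of these genes are given as a description, and their part in the comparisons below was not tested. RefSeq (GRCm38.p6) gave 80 promoters for 75 of the genes, and 250 bases upstream of each start were searched on both strands. The NRF1 motif GCGCATGC, that of a transcription factor known for nuclear mitochondrial genes, was in 9 of the 80 promoters (11.25%). It was in 4.15% of 12847 promoters of genes in the joint table and in 2.26% of all 32851 promoters. The ETS motif CCGGAAGT was in 3.75% of the members' promoters and 5.61% of those of genes in the joint table, the YY1 motif AAGATGGCG was in 1 of the 80 and in 1.15%, and the hypoxia response element core ACGTG was in 18.8% and 21.3%. Where the motif is followed by GC the 2 strands give overlapping matches, which were counted once. Of the 71 promoters of members with a ratio below 1 in all 3 hypoxic comparisons, 8 (11.3%) held the NRF1 motif and 21.1% the hypoxia response element core. These shares were near those of all members. The 5 promoters of members above 1 in all 3 held neither motif. A match describes letters in a window and is not a binding site. The sequences below run 5′ to 3′ on the gene's strand and carry the NRF1 motif in capitals. Each is the longest stretch of the 250 bases that holds no annotated exon. That of Cox6a1 therefore starts 171 bases before the gene start and that of Ndufv3 134 bases before it. Ndufaf4 and Sdhb are shown because they were lower in every hypoxic comparison, Ndufa4 as the partner of Ndufa4l2, and Cox6a1 as a further NRF1 match. Ndufv3 and Cox7a1 are shown because their ratios were above 1 in those comparisons. Sdhaf1 was lower in every hypoxic comparison too and is not printed. Its promoter held the hypoxia response element core and no NRF1 motif.
Ndufaf4, chr4:24897833-24898082, plus strand: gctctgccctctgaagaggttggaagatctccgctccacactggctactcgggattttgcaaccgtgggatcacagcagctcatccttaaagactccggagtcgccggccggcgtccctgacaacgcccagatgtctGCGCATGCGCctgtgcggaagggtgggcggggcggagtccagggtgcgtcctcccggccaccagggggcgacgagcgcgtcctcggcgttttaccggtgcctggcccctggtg
Cox6a1, chr5:115348982-115349129, minus strand: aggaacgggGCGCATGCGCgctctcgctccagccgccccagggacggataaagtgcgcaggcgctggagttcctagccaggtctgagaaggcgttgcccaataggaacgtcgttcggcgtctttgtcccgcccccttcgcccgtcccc
Sdhb, chr4:140961021-140961202, plus strand: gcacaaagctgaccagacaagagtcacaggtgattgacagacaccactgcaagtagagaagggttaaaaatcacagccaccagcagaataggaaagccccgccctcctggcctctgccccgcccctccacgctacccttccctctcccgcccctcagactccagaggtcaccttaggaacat
Ndufa4, chr6:11907498-11907700, minus strand: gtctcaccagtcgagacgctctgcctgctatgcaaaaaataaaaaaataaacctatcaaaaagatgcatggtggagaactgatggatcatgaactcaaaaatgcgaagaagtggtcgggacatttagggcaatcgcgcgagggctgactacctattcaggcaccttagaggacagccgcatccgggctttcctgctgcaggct
Ndufv3, chr17:31519981-31520114, plus strand: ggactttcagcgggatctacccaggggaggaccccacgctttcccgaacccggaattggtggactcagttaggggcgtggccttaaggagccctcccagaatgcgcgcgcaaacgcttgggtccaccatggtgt
Cox7a1, chr7:30183921-30184143, plus strand: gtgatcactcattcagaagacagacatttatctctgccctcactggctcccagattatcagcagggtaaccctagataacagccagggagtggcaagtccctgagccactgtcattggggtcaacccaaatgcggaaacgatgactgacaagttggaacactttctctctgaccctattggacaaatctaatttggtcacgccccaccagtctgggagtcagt
Ndufaf4 holds the motif on both strands from 113 bases before the gene start and Cox6a1 from 162 bases before it. Sdhb has it 54 bases before its start, inside an annotated exon that is not printed, and the stretches of Ndufa4, Ndufv3 and Cox7a1 held none of the 4 motifs.

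Across the authors' annotated clusters the summed level of the 93 genes was lowest in neutrophils, and the highest level was that of a macrophage cluster in LLC and of dividing CD8 T cells in B16. In LLC, where 16 clusters had at least 50 cells, the 445 cells of TAM-2 stood at 30017 CPM (29889 to 30145), followed by Prolif TAM at 24386 and Monocytes at 23536. At the other end, Neutrophil-1 was at 7524 CPM and Neutrophil-2 at 6805. In LLC the 2 neutrophil clusters were the lowest for 82 of the 93 genes.

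In B16, with 19 clusters ranked, Prolif CD8 T cells stood at 27738 CPM, CD8 T cells at 27201, TAM-3 at 26714, Tregs-1 at 25457 and pDC at 25241. Neutrophil-1 was at 10060 CPM and Neutrophil-2 at 8500, below plasma cells at 12151, and the neutrophil clusters were the lowest for 75 of the 93 genes. Lymphocytes did not behave as 1 group, since B cells (14729 CPM in LLC and 16978 in B16) and naive T cells (19574 and 20404) were below the CD8 T cells. Dendritic cells also differed among themselves in B16, where cDC2 stood at 24198, cDC1 at 23674 and migDC (migratory dendritic cells) at 19675.

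The neutrophil clusters had the fewest UMIs per cell, with medians of 1406 to 1803. Their 13 mitochondrially encoded subunits were low as well, at 7472 to 10691 CPM in these 4 groups of neutrophils against 17020 to 49131 in the other clusters. The part that low depth has in these values was not tested beyond thinning cells to 2000 UMIs, which most neutrophils do not reach.

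TAM-2 of the LLC tumour held the highest level for 68 of the 93 genes. Its sum was 3.00% of its UMIs whereas its median cell had 2.48%, so cells with many UMIs carried a larger share, and Prolif TAM had a median of 2.40%. Genes known for osteoclasts and for related multinucleate macrophages, read after this level had been seen, were high in these cells, with Ctsk at 2610 CPM, Acp5 at 3529 and Mmp9 at 929. Mmp9 was higher still in Neutrophil-1, at 1290 CPM in LLC and 1477.5 in B16. The choice of Ctsk, Acp5 and Mmp9 followed no fixed list, and the identity of TAM-2 was not tested. Of the 445 TAM-2 cells, 37 were in the authors' monocyte and macrophage table, so the subset results below leave most of them out.

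**Figure D1:**
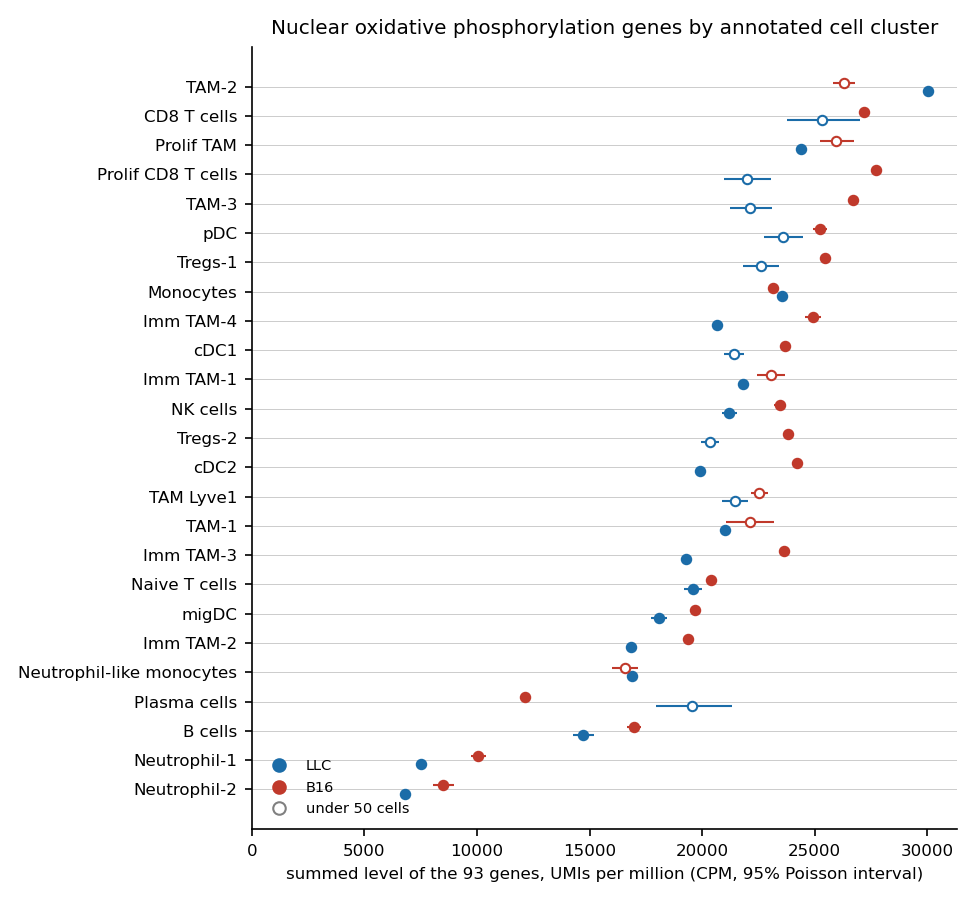
Summed level of the 93 nuclear oxidative phosphorylation genes (x axis, CPM, 95% Poisson interval) in each annotated cluster of the LLC (blue) and B16 (red) libraries, with open circles for clusters under 50 cells. Neutrophil-1 and Neutrophil-2 are at 6805 to 10060 CPM in the 2 libraries, and LLC TAM-2 is at 30017.

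A few members had a pattern of their own. Cox6a2, an isoform known from heart and skeletal muscle, was at 1524 CPM in the 114 pDC (plasmacytoid dendritic cells) of B16, and the next cluster there, TAM-3, was at 9.65. The 21 pDC of LLC were at 1176 CPM. All other B16 clusters of at least 50 cells were below 10 CPM, and Monocytes were at 0. Cox7a2l, a factor that links complexes III and IV, was highest in naive T cells in both libraries (567 CPM in B16 and 593 in LLC). Uqcrh was highest in Tregs-1 of B16 (1103 CPM) and in migDC of LLC (972). Ndufv3, an accessory subunit of complex I, was highest in Imm TAM-2 in both tumours (307 CPM in B16 and 304 in LLC) and was 43.5 and 79.4 in Neutrophil-1.

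In monocytes and macrophages the summed level of the 93 genes was 21863 CPM in LLC (9194 cells) and 25402 in B16 (2742 cells), a ratio of B16 over LLC of 1.162 (1.159 to 1.165). Different clusters held most of the class in the 2 tumours: TAM-3 had 1292 cells in B16 and 7 in LLC, and TAM-1 had 6 and 1619. The median gene of the whole table had a ratio of 0.992 and the median member 1.146. Complex IV had the highest summed ratio, 1.195 (1.189 to 1.201), followed by complex V at 1.166, complex I at 1.150, complex II at 1.130 and complex III at 1.098. Of the 93 genes 75 had a ratio above 1. At the 1.5-fold call 5 members were higher in B16, where 15.4% of all genes were, and 1 was lower, where 12.9% were, so the share of members called was below that of all genes in each direction. At a ratio of 5 to 4 it was above it for the higher calls (28.0% of members and 23.4% of all genes).

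The 5 higher members included 2 complex IV isoforms, Cox4i2 and Cox6a2, whereas the isoforms Cox7a1 (0.799) and Cox6b2 (0.823) had ratios below 1. Cox4i2 (chr2:152754173-152765037, plus strand), an isoform of subunit 4 known for its response to low oxygen, was at 5.38 CPM in LLC and 51.9 in B16, 9.65-fold higher (8.66 to 10.8). In the monocyte and macrophage table most B16 UMIs of Cox4i2 were in the TAM-1 subset, as given below. That subset had 941 cells in B16 and 2 in LLC. Cox6a2 was at 1.01 and 6.82 CPM, 6.73-fold higher (5.19 to 8.83). Cox6a2 reached 1524 CPM in pDC of the same B16 library, and the part that pDC RNA has in its level in macrophages was not tested. Their common counterparts stood at the same level in both tumours. Cox4i1 was at 1216 CPM in LLC and 1210 in B16, and Cox6a1 at 316 and 316.

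The other 3 higher members were Ndufa3 and Ndufa5, which are accessory subunits of complex I, and Atp5k, a subunit of complex V. Ndufa3 (chr7:3617373-3620327, plus strand) was at 88.7 CPM in LLC and 169 in B16, a ratio of 1.90 (1.83 to 1.97). Atp5k was at 140 and 215 CPM (1.53, 1.48 to 1.58) and Ndufa5 at 83.1 and 125 (1.505, 1.447 to 1.565). The lower member was Ndufa4l2, at 4.04 CPM in LLC and 1.14 in B16, a ratio of 0.282 (0.195 to 0.395). Its partner Ndufa4, a subunit of complex IV, was at 300.3 and 429 CPM (1.43, 1.40 to 1.46).

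The second LLC library, from C57BL/6J mice as B16 was, separates some of these genes from the others. Over all cells of the monocyte and macrophage table, Ndufa3 was at 87.5 CPM in LLC, 132 in LLC CITE-seq and 167 in B16. The 2 LLC libraries thus differed by 1.51-fold, more than the 1.26-fold between B16 and LLC CITE-seq. Atp5k was at 131, 180 and 209 CPM in the same order, and Ndufa4l2 at 4.99, 1.95 and 1.45. For these 3 genes LLC CITE-seq was between the other libraries, nearer to B16 than to LLC. Cox4i2 was at 5.82, 4.49 and 50.5 CPM and Cox6a2 at 0.970, 1.21 and 6.17, so both LLC libraries were low for them. Ndufa4 was at 277, 276 and 404 CPM, again with both LLC libraries below B16. Over all these cells 2 members were higher in B16 than in LLC CITE-seq (12.3% of all genes) and 0 were lower (11.2%), against 6 higher (13.8%), Ndufc2 being the one not named above, and 1 lower (12.9%) for B16 over LLC. In LLC CITE-seq over LLC Ndufa3 was the 1 member higher (4.98%) and Ndufa4l2 the 1 lower (3.43%).

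The same sum was above 1 in B16 over LLC in each of the 7 classes that had at least 50 cells in both libraries, and it stayed above 1 after division by the ratio of the median gene. The ratio was 1.357 (1.316 to 1.398) in neutrophils, from 7074 to 9595 CPM, 1.216 (1.200 to 1.231) in cDC2 and 1.153 (1.112 to 1.195) in B cells. NK cells followed at 1.107 (1.086 to 1.129), migDC at 1.089 (1.064 to 1.114) and naive T cells at 1.042 (1.020 to 1.065). The mitochondrially encoded subunits did not follow. Their ratio was 0.885 in monocytes and macrophages, where they were at 36113 CPM in LLC and 31945 in B16, 0.792 in neutrophils, 0.779 in migDC, 0.881 in cDC2, 0.899 in NK cells, 0.987 in B cells and 1.006 in naive T cells.

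**Figure D2:**
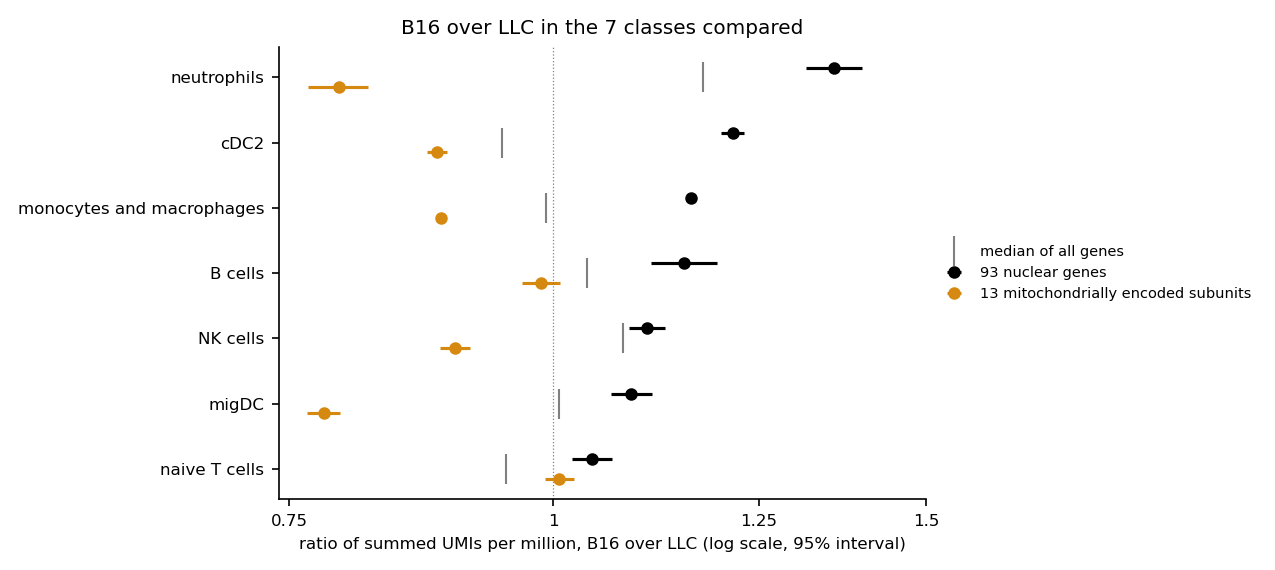
Ratio of summed CPM, B16 over LLC (x axis, log scale, 95% interval), of the 93 nuclear genes (black) and the 13 mitochondrially encoded subunits (orange) in the 7 classes compared, with the median ratio of all genes as a grey tick. The nuclear genes are above 1 in every class, from 1.042 in naive T cells to 1.357 in neutrophils, and the mitochondrially encoded subunits are at or below 1.006.

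Single members were called higher in 35 of 80 measured in neutrophils (30.6% of all genes), 9 of 89 in cDC2 (9.69%), 13 of 81 in B cells (18.1%), 7 of 84 in NK cells (16.2%), 2 of 81 in migDC (15.5%) and 8 of 87 in naive T cells (12.4%). They were called lower in 2 (15.5% of all genes), 3 (16.3%), 1 (13.7%), 0 (9.25%), 1 (12.6%) and 0 (15.2%) in the same order. The members lower in classes other than cDC2 were Ndufv3 and Ndufaf7 (neutrophils), Sdhc (B cells) and Ndufv1 (migDC). Shares of members called higher were thus above the share of all genes in neutrophils, by a small margin in cDC2, and below or near it in the other classes.

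Ndufa3 was the 1 member called higher in all 7 classes, a call that 4 of 4329 genes measured in all of them had (0.0924%). Its ratio was 2.52 (1.78 to 3.52) in neutrophils, 2.44 (2.05 to 2.92) in cDC2, 2.23 (1.28 to 4.14) in B cells, 2.08 (1.52 to 2.92) in migDC, 1.74 (1.32 to 2.31) in NK cells and 1.63 (1.19 to 2.27) in naive T cells. No class went the other way. As given above, the 2 LLC libraries also differed for this gene. Atp5k was called in 5 of the classes and Ndufa5 in 4. Of 79 members measured in all 7 classes, 26 had a ratio above 1 in every one (5.11% of all genes did).

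Ranked by the lower bound of the interval, Ndufa13 (100 CPM in LLC and 215 in B16) and Cox7a2 (135 and 278) followed Ndufa3 in neutrophils. Ndufv3 had the lowest ratio there, at 182 CPM in LLC and 49.6 in B16 (0.272, 0.176 to 0.403). In LLC the level of Ndufv3 was 243 CPM in Neutrophil-2 and 79.4 in Neutrophil-1, and B16 held fewer Neutrophil-2 cells (85 of 299 against 1142 of 1955). In B16 these clusters were at 64.0 and 43.5 CPM, so both were below their LLC counterparts. In cDC2, by the same bound, Atp5k (114 and 195 CPM) and Atp5l, another complex V subunit (502 and 780), followed Ndufa3. By the upper bound, the assembly factor Ndufaf2 (21.3 and 10.3) and the isoforms Cox6b2 (24.8 and 13.9) and Cox7a1 (8.15 and 3.08) were lowest. In B cells Ndufa4 had the ratio with the highest lower bound, 1.96 (1.41 to 2.79), from 158 to 309 CPM. In migDC the complex V subunit Atp5h went from 914 to 712 CPM (0.779, 0.700 to 0.867), and in naive T cells the catalytic subunit Atp5b from 303 to 440 (1.45, 1.22 to 1.74).

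Within the authors' clusters of monocytes and macrophages the difference was not uniform. The ratio of B16 over LLC was 1.224 in Imm TAM-3, 1.205 in Imm TAM-4 and 1.151 in Imm TAM-2, and in Monocytes it was 0.984 (0.975 to 0.994). Clusters of 1 name did not always hold the same subsets of the finer annotation. Imm TAM-3 was 79.8% Mono/TAM IFN in LLC, but 63.0% Immature TAM-1 and 23.1% Mono/TAM IFN in B16. Imm TAM-4 was 48.4% TAM-3 in LLC and 56.5% Immature TAM-1 in B16, whereas Imm TAM-2 was 73.3% and 73.1% Mono/TAM Hypoxic. Within a subset of the finer annotation the ratio of B16 over LLC was 0.969 in Monocytes, 0.998 in Mono/TAM IFN and 1.093 in Mono/TAM Hypoxic. In the monocyte and macrophage table the Monocytes subset was at 23998 CPM in LLC, 25943 in LLC CITE-seq and 23249 in B16, so B16 was the lowest of the 3. The Mono/TAM IFN subset was at 19600, 21367 and 19564 CPM. LLC CITE-seq was above LLC in all 9 subsets that could be compared, by 1.045 to 1.117, so 2 libraries of the same tumour differed by as much as some of the values between tumours.

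In each library the hypoxic subsets had the lowest CPM of the 93 genes among subsets of at least 50 cells, although relative to the median gene, as given below, the hypoxic sum was not below that of the other cells in either LLC library. Mono/TAM Hypoxic was at 17442 CPM in LLC, 19446 in LLC CITE-seq and 19058 in B16. LLC TAM Hypoxic was at 18700 CPM in LLC and 20639 in LLC CITE-seq, and with 17 cells in B16 it was not ranked there. They were the last 2 of 9 subsets in LLC and the last 2 of 10 in LLC CITE-seq, and Mono/TAM Hypoxic was the last of 5 in B16. The highest subsets were Monocytes in both LLC libraries, and in B16 TAM-1 at 26269 CPM and Immature TAM-1 at 25482. Mono/TAM Hypoxic was the lowest subset for 62 of the 93 genes in LLC, 57 in LLC CITE-seq and 52 in B16.

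**Figure D3:**
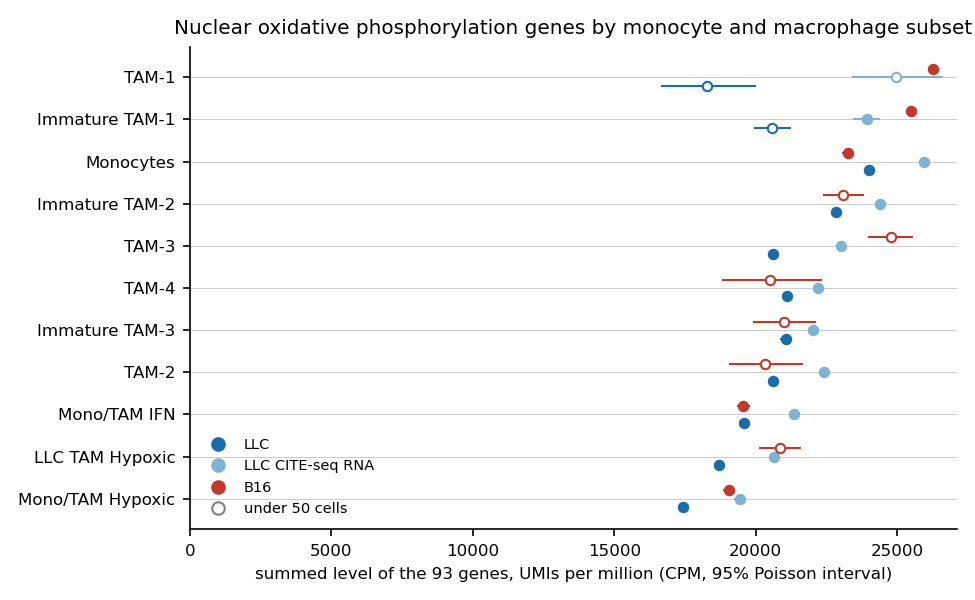
Summed level of the 93 genes (x axis, CPM, 95% Poisson interval) in each monocyte and macrophage subset of the LLC (dark blue), LLC CITE-seq (light blue) and B16 (red) libraries, with open circles for subsets under 50 cells. Mono/TAM Hypoxic is at 17442 to 19446 CPM and Monocytes at 23249 to 25943, on a scale that is not relative to the median gene.

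The authors made these subsets by clustering the same RNA, so the hypoxic subsets against the other cells is a description with no test. Put together, the hypoxic cells (1550 in LLC, 1081 in LLC CITE-seq and 230 in B16) had 17949, 20155 and 19218 CPM of the 93 genes, against 21314, 22676 and 25307 in the other cells. The ratios were 0.842 (0.838 to 0.846), 0.889 (0.883 to 0.895) and 0.759 (0.751 to 0.768). The median gene was lower on this scale too, at a ratio of 0.828, 0.869 and 0.802 (log2 -0.27, -0.20 and -0.32). Divided by that ratio the sums were 1.017 in LLC, 1.023 in LLC CITE-seq and 0.946 in B16, so the direction of the whole sum turned in both LLC libraries. The median member was below the median gene in each library, at 0.763, 0.849 and 0.672.

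The complexes differed in this respect. Complexes I and II were below 1 in all 3 libraries on both scales, whereas complexes III and IV were below 1 in CPM and above 1 relative to the median gene. Complex I had summed ratios of 0.778 in LLC, 0.842 in LLC CITE-seq and 0.709 in B16, which were 0.940, 0.969 and 0.883 relative to the median gene. Complex II had 0.728, 0.795 and 0.588, or 0.879, 0.915 and 0.732 relative to it. Complex III had 0.901, 0.923 and 0.830 (1.088, 1.063 and 1.034 relative to the median gene) and complex IV 0.911, 0.946 and 0.817 (1.100, 1.090 and 1.018). Complex V was at 0.827, 0.873 and 0.742 (0.998, 1.005 and 0.924). The 12 assembly factors, which build complexes I and II and are not part of them, had 0.669, 0.766 and 0.695 and stayed below the median gene in each library (0.808, 0.881 and 0.866).

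Counted one by one, 22 members were lower in the hypoxic subsets of LLC (27.7% of all genes were), 4 in LLC CITE-seq (20.1%) and 44 in B16 (36.2%), and 2 (9.32%), 3 (7.97%) and 2 (14.1%) were higher. The share of members called lower was therefore below that of all genes in both LLC libraries and above it in B16. That order depended on the setting: at a ratio of 5 to 4 the share in LLC was above that of all genes (55.9% and 46.2%), and relative to the median gene the share in B16 was below it (21.5% and 23.1%). Complex I held 14 of the 22 in LLC and 27 of the 44 in B16. The 4 in LLC CITE-seq were Ndufaf4, Sdhaf1, Sdhb and Atp5s, and the higher members were Ndufa4l2 in each library, with Cox4i2 in both LLC libraries, Cox6a2 in LLC CITE-seq and Cox7a1 in B16. The Cox6a2 call rests on few UMIs, and in Mono/TAM Hypoxic alone of LLC CITE-seq its ratio was 0.469 (0.0117 to 2.71, from 1 UMI). In all 3 libraries 79 of the 93 had a ratio below 1 (52.6% of all genes did) and 7 a ratio above 1 (17.8%). Relative to the median gene 45 were below it in all 3 (48.4%, against 31.8% of all genes), 29 of them among the 44 of complex I and 3 among the 17 of complex IV.

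**Figure D4:**
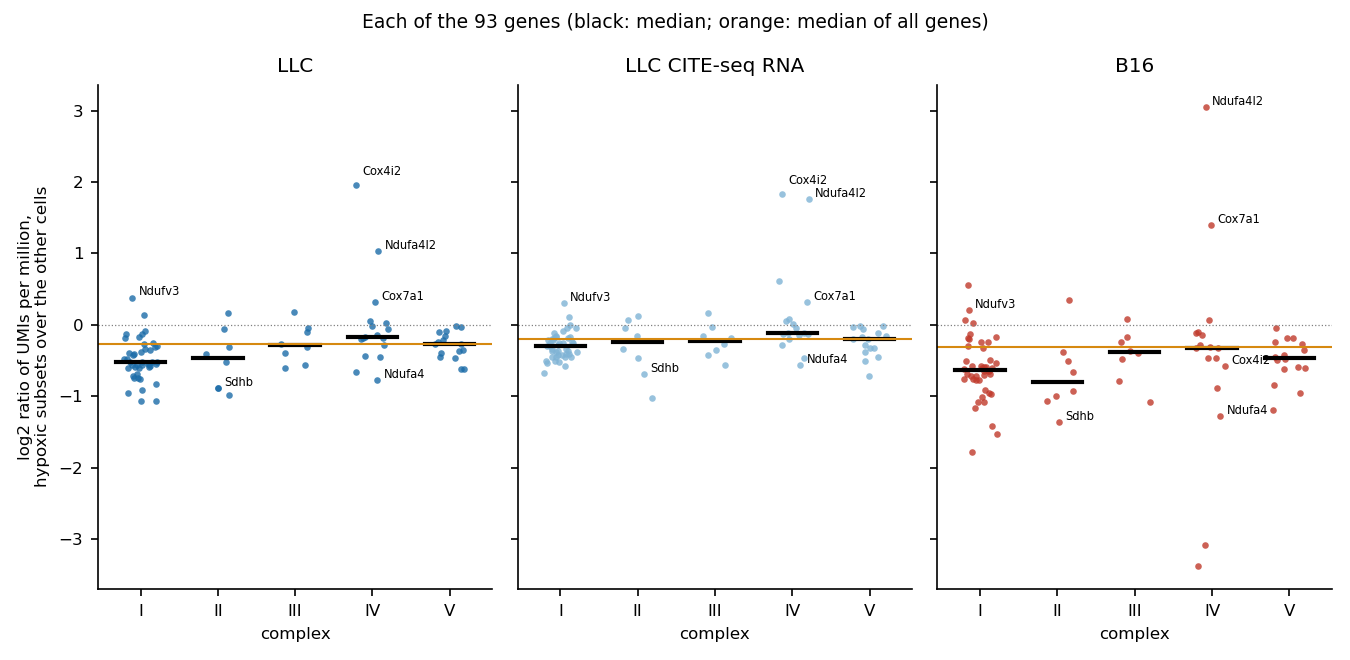
Log2 ratio of CPM in the hypoxic subsets over the other cells (y axis) for each of the 93 genes, by complex (x axis), in the 3 libraries. Black bars are the median of each complex and the orange line is the median of all genes, at -0.27, -0.20 and -0.32. Complex I lies mostly below that line, and Cox4i2 is high in both LLC libraries and below the line in B16.

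Members lower by 1.5-fold in all 3 libraries were Ndufaf4, Sdhaf1 and Sdhb (3 of 93, where 10.6% of all genes were). LLC CITE-seq limited this number, since 21 members were lower in both LLC and B16 (19.6% of all genes were). Sdhb (chr4:140961203-140979193, plus strand) codes the iron-sulfur subunit of succinate dehydrogenase. It was at 83.2 CPM in hypoxic cells and 153 in the others in LLC, 95.7 and 155 in LLC CITE-seq, and 79.2 and 203 in B16. The ratios were 0.543 (0.504 to 0.585), 0.618 (0.559 to 0.680) and 0.390 (0.324 to 0.466). The 3 hypoxic values were below the 3 values of the other cells.

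Sdhaf1 (chr7:30321406-30323895, minus strand) codes a factor that helps insert the iron-sulfur clusters of Sdhb. It was at 13.7 CPM in hypoxic cells and 27.1 in the others in LLC, 14.8 and 30.1 in LLC CITE-seq, and 12.6 and 26.4 in B16. Its ratios of 0.507, 0.491 and 0.477 were nearly the same in the 3 libraries. Ndufaf4 (chr4:24898083-24905001, plus strand), a complex I assembly factor whose promoter is printed above, was at 9.61 and 20.2 CPM, 14.8 and 23.6, and 8.18 and 23.7. Its ratios were 0.477 (0.380 to 0.592), 0.626 (0.482 to 0.801) and 0.345 (0.182 to 0.595). The other subunits of complex II were less low in LLC, where Sdha was at 0.695, Sdhc at 0.755 and Sdhd at 0.964. Ndufb4 (0.670), Ndufa4 (0.674) and Uqcrc1 (0.675) were called lower in LLC and B16 and lay just outside the fold in LLC CITE-seq, where Ndufaf4 and Sdhb lay just inside it.

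The 7 genes with a ratio above 1 in all 3 libraries were Cox7c, Ndufa2, Uqcrh, Sdhaf2, Ndufv3, Cox7a1 and Ndufa4l2, of which Cox7c, Ndufa2 and Sdhaf2 are named after their values were seen. Uqcrh, the hinge protein of complex III, was at 645 CPM in hypoxic cells and 569.8 in the others in LLC, 662 and 588 in LLC CITE-seq, and 624 and 591 in B16. Ndufv3 was at 291 and 224, 279.9 and 226, and 293 and 254 CPM in the same order. Both were small increases, with ratios of 1.055 to 1.13 for Uqcrh and 1.15 to 1.30 for Ndufv3. Cox7a1, the muscle isoform of subunit 7a, was at 13.6 and 10.9, 13.5 and 10.8, and 22.6 and 8.62 CPM, and its ratio of 2.63 (1.79 to 3.76) in B16 was the highest of the 3.

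Ndufa4l2 (chr10:127514967-127517154, plus strand) was the 1 member called higher in all 3 libraries (4.48% of all genes were). Without B16 there were 2, the other being Cox4i2 (5.62% of all genes). Ndufa4l2 was at 8.86 CPM in hypoxic cells and 4.31 in the others in LLC (2.05, 1.58 to 2.65), 5.52 and 1.64 in LLC CITE-seq (3.37, 2.07 to 5.32), and 8.18 and 0.992 in B16 (8.25, 3.84 to 17.0, from 13 and 23 UMIs). Its partner Ndufa4 (chr6:11900292-11907497, minus strand) went the other way. Ndufa4 was at 173 and 295 CPM in LLC (0.587, 0.557 to 0.618), 191 and 283 in LLC CITE-seq (0.674, 0.629 to 0.722), and 174 and 419.9 in B16 (0.413, 0.365 to 0.466). The level of Ndufa4 in Mono/TAM Hypoxic cells was close in the 3 libraries, at 180, 190 and 171 CPM, and it was 486, 464 and 410 in Monocytes. Ndufa4l2 was not confined to the hypoxic subsets, since TAM-2 had 9.9 CPM in LLC and 4.7 in LLC CITE-seq.

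The pair Cox4i1 and Cox4i2 did not behave alike in the 2 tumours. Cox4i1 (chr8:120668222-120674207, plus strand) was at 1207 CPM in hypoxic cells and 1187 in the others in LLC, 1302 and 1252 in LLC CITE-seq, and 1110 and 1229 in B16, with ratios of 1.02, 1.04 and 0.903. Cox4i2 was at 15.8 and 4.07 CPM in LLC (3.88, 3.12 to 4.81) and 13.3 and 3.73 in LLC CITE-seq (3.55, 2.61 to 4.77), and at 34.6 and 51.6 in B16 (0.671, 0.502 to 0.879; log2 -0.26 relative to the median gene). The B16 hypoxic cells thus had more Cox4i2 than those of either LLC library. The ratio below 1 in B16 rests on TAM-1, a subset of 941 cells at 83.4 CPM that held 1133 of its 1251 UMIs, and Mono/TAM Hypoxic, at 31.1, was above Mono/TAM IFN at 10.5, Immature TAM-1 at 8.18 and Monocytes at 0.782. In LLC, Mono/TAM Hypoxic was at 19.4 CPM, LLC TAM Hypoxic at 10.5, TAM-2 at 10.1 and Monocytes at 0.490.

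**Figure D5:**
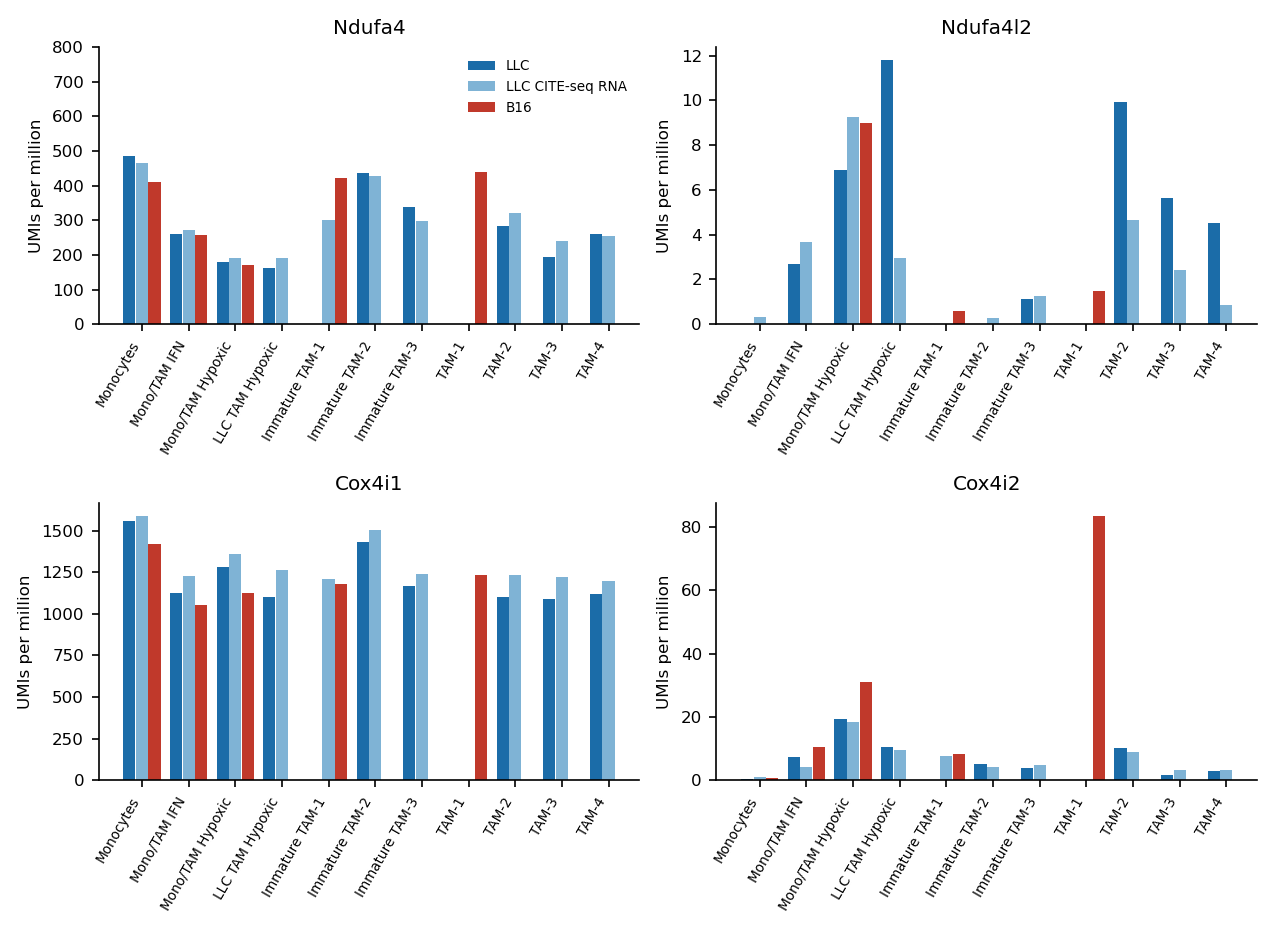
Levels (y axis, CPM, from 0) of Ndufa4, Ndufa4l2, Cox4i1 and Cox4i2 in each monocyte and macrophage subset of at least 50 cells, in the LLC, LLC CITE-seq and B16 libraries. Cox4i2 is at 83.4 CPM in B16 TAM-1 and at 18.5 to 31.1 in Mono/TAM Hypoxic cells, and Ndufa4 is at 171 to 190 in Mono/TAM Hypoxic cells and 410 to 486 in Monocytes.

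The remaining isoforms and the subunit c genes are given by their ratios. Cox6a1 had ratios of 0.819, 0.869 and 0.724 and Cox6b1 of 0.873, 0.909 and 0.927 in LLC, LLC CITE-seq and B16. Cox7a2 had 0.888, 0.915 and 0.799 and Cox8a 0.991, 1.01 and 0.930. Cox6a2 and Cox6b2 rest on 1 UMI each in the hypoxic cells of B16. Among the 3 genes that code subunit c of ATP synthase, Atp5g1 was lowest at 0.648, 0.703 and 0.515, Atp5g3 was at 0.785, 0.800 and 0.557, and Atp5g2 at 0.985, 0.989 and 0.780, so that Atp5g1 and Atp5g2 differed in each library. Atp5e, the most abundant complex V member by UMIs, was at 0.942, 0.963 and 0.966. Ndufa13, the most abundant of complex I, was at 0.677, 0.788 and 0.635.

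Other gene lists of mitochondria and of glucose use give the setting of these values. Of all genes, 27.7%, 20.1% and 36.2% were called lower in LLC, LLC CITE-seq and B16. The 13 mitochondrially encoded subunits had summed ratios of 0.840, 0.887 and 0.652 (5, 2 and 8 of 13 called lower), with mt-Nd3 lowest at 0.427, 0.573 and 0.234 and mt-Co1 at 1.05, 1.04 and 0.874. These sums were above the ratio of the median gene, given above, in both LLC libraries and below it in B16. Of the tricarboxylic acid cycle genes, 6, 5 and 11 of 18 were called lower, with a sum of 0.750, 0.777 and 0.595. The enzyme Fh1 (fumarase) was at 0.493, 0.552 and 0.273. The list of cycle genes holds no Sdh gene, and its sums were close to those of complex II (0.728, 0.795 and 0.588). Mitochondrial ribosomal protein genes had 35, 11 and 40 of 77 called lower, and cytosolic ribosomal protein genes 3 of 89, 0 of 90 and 6 of 89.

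Genes of glycolysis went the other way, with 14, 10 and 18 of 22 called higher (9.32%, 7.97% and 14.1% of all genes). Their summed ratios were 1.727, 1.574 and 1.890. The glucose transporter Slc2a1 was at 3.73, 2.84 and 4.73. Of 23 genes known to respond to low oxygen, a list that includes Ndufa4l2, 21, 21 and 22 were called higher. Vdac1, the outer membrane channel, was the 1 of 8 cytochrome c and carrier genes above 1 in all 3 libraries, at 1.89, 1.48 and 1.77, and Cycs (cytochrome c) was at 0.636, 0.748 and 0.616. In B16 over LLC monocytes and macrophages the glycolysis sum was at 0.938 and the low-oxygen list at 0.654, while the low-oxygen list of LLC CITE-seq over LLC was at 0.690.

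The 8 markers of hypoxic cells were all higher in the hypoxic subsets of each library, with sums of 2965 against 688 CPM in LLC, 1896 against 604 in LLC CITE-seq and 2927 against 592 in B16. Markers of other cells also differed, and their part in the results was not tested. Neutrophil markers summed to 558 against 416 CPM in LLC (5 of 6 higher), 503 against 338 in LLC CITE-seq (6 of 6) and 63.5 against 376 in B16 (0 of 6, with 2 at 0 UMIs). The 8 monocyte and macrophage markers summed to 16118 against 33909, 21107 against 30850 and 8287 against 16672. Platelet markers summed to 3956 against 1480, 3161 against 988 and 1538 against 421 CPM, both higher in each library. Markers of dividing cells summed to 22.4 against 36.7, 36.9 against 56.7 and 34.6 against 193. The Mono/TAM Hypoxic cells had medians of 4703, 2945 and 6249 UMIs, and thinning all cells to 2000 UMIs gave ratios of 0.832, 0.872 and 0.776 for the sum of the 93 genes.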

How the data were processed

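Libraries were made on the 10x Genomics platform, and the submitters' processing notes name Cell Ranger and the mm10 build; the version is not stated there. The authors deposited filtered UMI counts per gene and cell, and the deposited cell annotation gave libraries, clusters and subsets. The antibody tags were not used. No doublet caller was run, and no label says whether doublets had been removed. Counts were summed per library and cluster (Python 3.11.15, numpy 2.4.6, pandas 2.3.3, scipy 1.17.1, matplotlib 3.10.9). Levels have exact Poisson intervals, and ratios of sums have exact conditional binomial intervals, at 95%. With 1 library per group no p-value was computed. The arithmetic was tested on simulated data.

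Members, lists and comparisons were chosen with earlier results of these data known. Members were named where they passed 1.5-fold in a main comparison (in all 3 libraries for the hypoxic subsets), had the most UMIs of their complex, belonged to an isoform family, or were among the 3 highest or lowest of another class by the interval bound nearest to 1. Others are given as threshold neighbours, as cluster extremes or as members of a counted group, and were chosen after their values were seen. Of other lists, the 3 highest and lowest genes could be named. The alternatives were another scaling, thinning to 2000 UMIs, other folds and UMI minimums, other reference cells and leaving out the cells with the most UMIs.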

Additional observations from a re-analysis of the deposited data

Results flagged for a closer look

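Cox4i2, the complex IV isoform gene, had ratios of hypoxic subsets over the other cells of 3.88 in LLC, 3.55 in LLC CITE-seq and 0.671 in B16. It stands out because both LLC libraries moved one way and the B16 library the other. The difference between tumours was not tested, since each has at most 2 libraries, and the B16 value rests on the high level of its TAM-1 subset.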

How the results depend on the processing

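Relative to the median gene, the hypoxic ratio of the sum was 1.02 in LLC, 1.02 in LLC CITE-seq and 0.946 in B16, which turns the direction in both LLC libraries. It was 0.830 and 0.733 in LLC and B16 without mitochondrial and ribosomal genes in the total. It was 0.748, 0.777 and 0.827 (LLC, LLC CITE-seq, B16) against Monocytes alone, and 0.832, 0.872 and 0.776 after thinning to 2000 UMIs. Mono/TAM Hypoxic alone gave 0.818 and 0.858 in the LLC libraries and LLC TAM Hypoxic alone 0.877 and 0.910.

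Each number of members called is followed by the percent of all genes called under the same setting. Members called lower numbered 52 in LLC (46.2%) and 36 in LLC CITE-seq (39.3%) at a ratio of 5 to 4. At 2-fold they numbered 2, 1 and 15 (10.6%, 7.72% and 20.2%, for LLC, LLC CITE-seq and B16), and relative to the median gene 7, 1 and 20 (14.8%, 12.2% and 23.1%). In LLC CITE-seq they numbered 10 after thinning (22.9%), 7 without the 5% of cells with the most UMIs (21.4%) and 2 among subunits only (20.1%). After thinning the share of members lower in LLC was above that of all genes (32.6% and 29.9%), and at 2-fold that in B16 was below it (16.1% and 20.2%). Members called higher numbered 4 in LLC (15.8%) and 4 in B16 (23.3%) relative to the median gene, and in B16 4 at a ratio of 5 to 4 (21.4%) and 1 with at least 100 UMIs (10.9%). Leaving out 1 library at a time was an alternative chosen after seeing the data. In the remaining libraries 3 to 21 members were lower (13.25% to 19.6%) and 1 to 2 higher (5.0023% to 6.23%). Ratios were below 1 for 79 to 82 members (56.2% to 61.4%) and above 1 for 7 to 9 (21.1% to 22.5%).

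For B16 over LLC, relative to the median gene, the sums were 1.03 in NK cells, 1.10 in naive T cells, 1.11 in B cells, 1.15 in neutrophils, 1.17 in monocytes and macrophages and 1.29 in cDC2. Thinning gave 1.05 in migDC, 1.07 in B cells and 1.15 in monocytes and macrophages. Without mitochondrial and ribosomal genes in the total the ratio was 1.05 in NK cells, 1.10 in naive T cells, 1.17 in monocytes and macrophages and 1.24 in cDC2. It was 1.10 in B cells without the cells with the most UMIs. In monocytes and macrophages it was 1.18 as the median over shared clusters, of which Imm TAM-3 and Imm TAM-4 held different subsets in the 2 tumours. Within subsets of the finer annotation, B16 over LLC was 0.969 in Monocytes, 0.998 in Mono/TAM IFN and 1.093 in Mono/TAM Hypoxic. With LLC CITE-seq in place of LLC the ratio over all monocytes and macrophages was 1.11, which left 2 members higher (12.3%) and 0 lower (11.2%). That value is over all cells of the monocyte and macrophage table, which are not the cells of the joint table. There the members made up 2.49% of UMIs in B16, 2.25% in LLC CITE-seq and 2.08% in LLC. Within subsets, B16 over LLC CITE-seq was 0.896 in Monocytes, 0.916 in Mono/TAM IFN, 0.980 in Mono/TAM Hypoxic and 1.065 in Immature TAM-1. The value over all cells thus did not hold within each subset. For B16 over LLC in the joint table, 26 members were higher (23.4%) and 3 lower (22.4%) at a ratio of 5 to 4, and 2 higher at 2-fold (10.4%). In the subsets, without mitochondrial and ribosomal genes in the total, Mono/TAM IFN was at 0.979 over LLC and 0.874 over LLC CITE-seq and Mono/TAM Hypoxic at 0.940 over LLC CITE-seq. Causes were not tested.

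Thinning left out 213 of 299 B16 neutrophils and 1450 of 1955 LLC neutrophils. A reference without proliferating cells was not run, since no subset has that name, and LLC TAM Hypoxic alone gives no value in B16. No paired analysis was possible because B16 and LLC were compared as 1 library each with no test. Hypoxic and other cells were compared within each library.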
